A study of Mus musculus with 45 samples.

Results

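LM1 is a mouse mammary tumour cell line that was isolated from the lungs of mice after Myc310 cells had been injected into the mammary fat pad; Myc310 itself comes from a tumour of an MMTV-cMYC mouse, in which the mouse mammary tumour virus promoter drives MYC in the mammary epithelium. The libraries described here are 6 of the 45 libraries of the series: 3 LM1 cultures kept in control medium and 3 LM1 cultures kept in medium free of cysteine and of its oxidised dimer cystine. They were chosen by their labels, with no use of measured values, and all 13400 genes that passed a filter on low counts were examined. Cells had been seeded at 250000 per well in medium with serum, glutamine, insulin, hydrocortisone and epidermal growth factor, and after 24 h the medium was changed to control or deprived medium for 6 h in both groups. Each group stands for 1 line, and the submitters call the 3 replicates of a line technical; the labels number them without saying that they were grown apart. They are called cultures below, and the p-values and SEs measure only the spread between these libraries, which may be technical. Polyadenylated RNA was sequenced, and the authors' values are whole-number counts per gene. Levels are given as CPM, the counts of a gene relative to the total of its library after TMM scaling, and changes as the log2 ratio of deprived over control, so that 1 on that scale is a doubling.

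Cysteine enters cells mainly as cystine through the exchanger xCT, which pairs the Slc7a11 product with the heavy chain encoded by Slc3a2, and is used for protein, for glutathione and for iron-sulfur clusters. Some cells can also make it from methionine by transsulfuration, through cystathionine beta-synthase (Cbs) and cystathionine gamma-lyase (Cth). Uncharged transfer RNAs activate the kinase GCN2, which phosphorylates the initiation factor eIF2 and so lowers general translation while favouring translation of the transcription factor ATF4; other kinases start the same integrated stress response from the endoplasmic reticulum, from heme or from double-stranded RNA. A shortage of glutathione or oxidative stress stabilises NRF2, and iron-dependent lipid peroxidation under cystine shortage can lead to ferroptosis.

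At a Benjamini-Hochberg adjusted p under 0.05 in edgeR's quasi-likelihood test, which supplies the adjusted p-values in the whole text, 9524 genes changed, 71.1% of those tested. Of these, 4794 rose (35.8%) and 4730 fell (35.3%), and the median over all genes was -0.0046 on the log2 scale. A change of more than 2-fold on top of that threshold was seen for 1214 genes that rose (9.06%) and 1234 that fell (9.21%). This balance depends on the scaling: with total counts only 3939 genes rose and 5622 fell, 1010 and 1515 of them by more than 2-fold. In 9812 genes (73.2%) the 3 control and the 3 deprived cultures did not overlap, whether or not the gene passed the threshold. With such a background, a gene list in which most members pass the test does not stand out by that alone, and the counts past 2-fold and the medians below are to be read against these shares. For 3 cultures against 3 an exact permutation test cannot go below p = 0.1, so no such test is given.

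**Figure D1:**
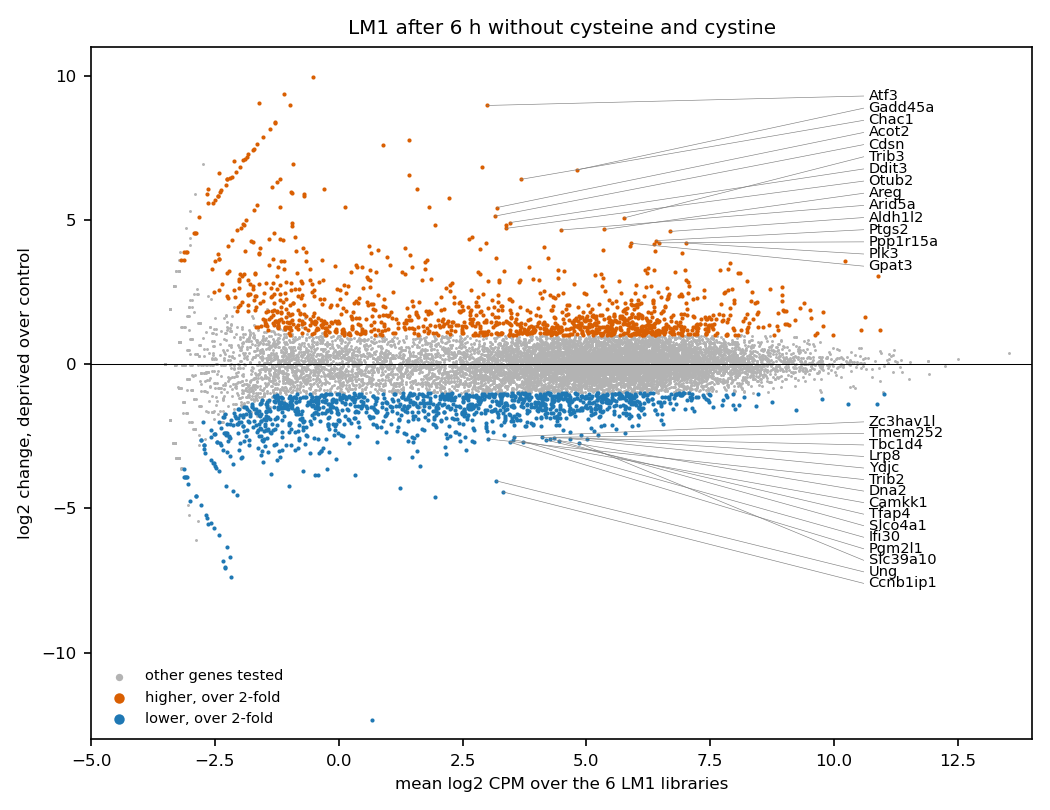
Log2 change of LM1 after 6 h without cysteine and cystine (y axis, deprived over control) against the mean log2 CPM over the 6 LM1 libraries (x axis) for the 13400 genes tested. Orange points rose and blue points fell past the adjusted p threshold of 0.05 by more than 2-fold, grey points are all others, and the labelled genes are the 15 largest increases and 15 largest decreases named in the text; Atf3 lies highest at 8.97 and Ccnb1ip1 lowest of those at -4.43.

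The 6 libraries held 19521444 to 22238117 counts in control medium and 22890621 to 23370257 in deprived medium, and the share of mitochondrially encoded counts was 1.95 to 2.20% and 2.00 to 2.14%. The TMM factors differed between the groups, at 1.02 to 1.02 in control and 0.934 to 0.943 in deprived cultures, so the sign of small changes depends on the scaling; with total counts only, the median of all genes moved to -0.12. Of the luminal keratins, Krt8 stood at 855 CPM in control and 1089 CPM in deprived medium (0.35), and Krt18 at 224 and 293 CPM (0.39). The intermediate filament gene Vim, which is typical of mesenchymal cells, stood at 3657 CPM. Of the 11 luminal markers, 7 were at 3 counts or fewer in each of the 6 libraries, among them Epcam, Cdh1 and Cldn3. The luminal markers summed to 1079 to 1108 CPM in control and 1380.1 to 1420.2 CPM in deprived cultures, nearly all of it from Krt8 and Krt18; Krt19, at 5.91 and 9.62 CPM, and Krt7, at 9.28 and 6.45 CPM, were low. The leukocyte markers measured summed to 0.371 to 1.01 CPM over the 6 libraries, the basal epithelial markers to 0.229 to 0.690 CPM and the alveolar markers to 0.322 to 1.23 CPM, with Ptprc, Trp63 and Sftpc at the floor. The 12 fibroblast markers summed to 15.2 to 17.6 CPM in control and 10.9 to 11.9 CPM in deprived cultures, and 6 of them, Dcn and Lum included, were at the floor. The endothelial markers summed to 168.8 to 173.1 CPM in control and 136.5 to 144.5 CPM in deprived cultures, nearly all of it from Eng, while Pecam1 and Vwf were at the floor. The part of these shifts in the results was not tested.

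The transcription factors of the integrated stress response changed widely. Atf3, a repressor and activator induced by many stresses, had the largest rise in LM1 among genes at or above a mean log2 CPM of 3. Its level was 0.252, 0.530 and 0.183 CPM in the control cultures and 157, 172 and 172 CPM in the deprived ones, a log2 change of 8.97 (SE 0.10, adjusted p = 6.33e-34). Ddit3, which encodes CHOP and overlaps a second gene model of that name, moved from 1.96, 2.07 and 1.83 to 58.1, 59.5 and 59.5 CPM (4.91, SE 0.088, adjusted p = 1.27e-28). The groups lay far apart for both genes, with every deprived culture above every control culture. Atf4 mRNA itself, whose product is controlled mainly at translation, rose from 132, 139 and 137 to 759.6, 790.4 and 784 CPM (2.52, SE 0.029). Of 15 ATF and C/EBP factors tested, 13 rose, 9 of them more than 2-fold, and 2 fell, with a median of 1.54. Atf5 rose by 3.28, the ATF4 partner Cebpg by 2.32 and the ER stress sensor Atf6 by 1.54. Cebpa and Cebpz were the members that fell, by 0.17 and 0.50 on the log2 scale; without deprived culture 3 the call of Cebpa was lost (adjusted p = 0.0822). Nupr1, a small chromatin protein induced by amino acid shortage, went from 21.3 to 324 CPM (3.92).

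The mRNAs of the kinases and of the phosphatase that act on eIF2 moved in different directions. Ppp1r15a, which encodes the stress-induced phosphatase subunit GADD34 that removes the phosphate from eIF2, rose from 20.3, 21.8 and 19.5 to 365, 392 and 383 CPM (4.21, SE 0.045, adjusted p = 3.35e-34). Its constitutive counterpart Ppp1r15b rose by 0.84. Among the kinases, Eif2ak4 (GCN2, the sensor of uncharged transfer RNA) fell by 0.84 and Eif2ak1 (HRI, the sensor of heme) by 0.75 on the log2 scale. Eif2ak3 (PERK) rose by 0.46 and Eif2ak2 (PKR) fell by 0.40. Over the 12 genes of this list, 7 rose and 4 fell, 2 rose more than 2-fold and none fell that far; with total counts only 5 rose and 5 fell.

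ATF4 and its C/EBP partners can bind the amino acid response element, and its core letters were looked up here as a description only. Binding was not measured, and a part of these letters in the response was not tested. The letters TGATGNAA were searched on both strands in the 250 bases before each start in RefSeq's promoter table (build GRCm38.p6), where 3.45% of all 32851 promoters hold them. The table holds promoters for 9713 of the 13400 genes tested, too small a share, so a comparison of shares between rising and falling genes is void and none is made. The windows below come from genes of the response that hold a match, shown with 30 bases on each side where the promoter allows, and the capitals mark the matches. They are given on the strand of the gene and belong to Chac1 (chr2:119351019-119351086, plus strand), Atf3 (chr1:191183406-191183473, minus strand), Slc7a11 (chr3:50443623-50443709, minus strand), Asns (chr6:7693210-7693262, minus strand), Herpud1 (chr8:94386287-94386354, plus strand) and Fgf21 (chr7:45615592-45615659, minus strand).
Chac1: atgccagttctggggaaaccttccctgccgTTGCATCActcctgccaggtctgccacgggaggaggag
Atf3: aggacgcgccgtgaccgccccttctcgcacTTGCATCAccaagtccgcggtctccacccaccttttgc
Slc7a11: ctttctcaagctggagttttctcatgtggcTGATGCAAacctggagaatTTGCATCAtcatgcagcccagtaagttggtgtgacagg
Asns: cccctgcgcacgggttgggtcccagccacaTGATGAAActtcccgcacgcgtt
Herpud1: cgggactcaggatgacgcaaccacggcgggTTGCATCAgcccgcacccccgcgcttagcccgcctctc
Fgf21: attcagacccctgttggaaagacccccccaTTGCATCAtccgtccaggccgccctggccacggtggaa
The match in Asns begins 23 bases before the start and the one in Chac1 193 bases before it, and Slc7a11 holds a pair of facing matches that begin 66 and 47 bases before it. Of 19 response genes searched that have a promoter in the table, 9 hold a match in at least 1 promoter, Nupr1, Pck2 and Vldlr (in 1 of its 2 promoters) besides those shown. These genes were picked as members of the response and are counted per gene, while the 3.45% is a share of promoters. The counts therefore cannot be set against that share. No match lies in the listed windows of the other 10, Trib3, Ddit3, Sesn2, Psph, Gadd45a, Ppp1r15a, Gpt2, Mthfd2, Gdf15 and Atf5, which says only that these letters are not in those 250 bases.

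Targets of the response that act on growth signalling rose with these factors. Trib3, a pseudokinase that binds AKT, rose from 8.51, 9.13 and 10.3 to 304, 319 and 323 CPM (5.08, SE 0.055, adjusted p = 4.85e-34). Sesn2, a leucine-binding inhibitor of mTORC1, rose from 45.4 to 223 CPM (2.29), and Ddit4, which acts on mTORC1 through the TSC complex, from 102 to 433 CPM (2.09). Eif4ebp1, which holds back cap-dependent translation, rose by 1.69. The direction was not shared by the whole list of brakes on AKT and mTORC1: 7 of 16 rose and 6 fell, and the median of 0.095 turned to -0.024 with total counts only. Trib2 fell by 2.59, the arginine sensor gene Castor1 by 1.42 and Sesn1 by 0.96 on the log2 scale. Gadd45a, whose product binds stress kinases and DNA repair factors, had the second largest rise in LM1 among genes of that expression level. It went from 2.97, 2.60 and 2.51 to 277, 277 and 309 CPM (6.74, SE 0.081, adjusted p = 5.10e-33), with no overlap between the groups. Gadd45g rose by 1.40, while Gadd45b, at 12.1 and 11.4 CPM, did not pass the test (adjusted p = 0.485).

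**Figure D2:**
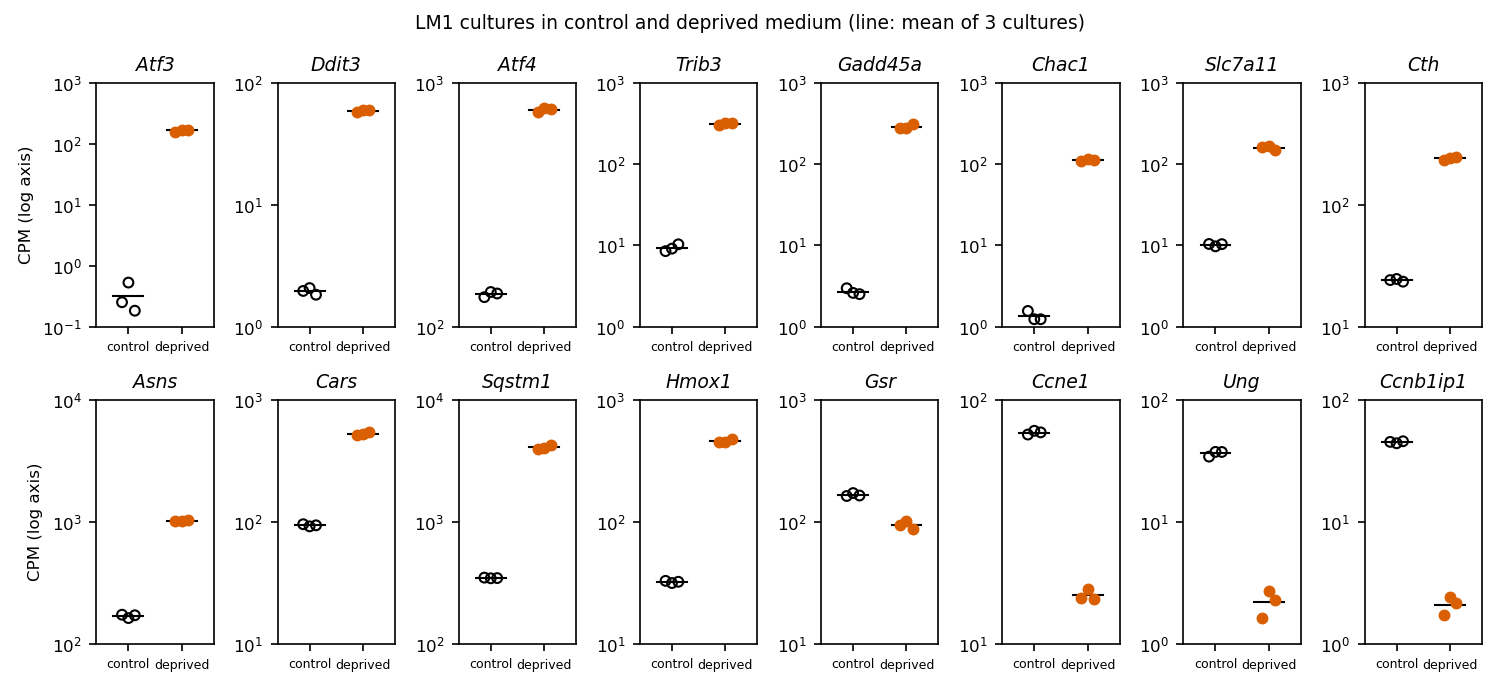
CPM (log axis) of 16 genes in the 3 control (open circles) and 3 deprived (filled circles) LM1 cultures, with a line at each group's mean. The groups do not overlap in any of the 16; Atf3, Chac1 and Gadd45a move furthest up, and Ung and Ccnb1ip1 furthest down.

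Of 9 genes listed for secreted factors, 7 were kept by the low-count filter, and each of those rose more than 2-fold; Fgf21 and Gdf15 were kept only through libraries in which they were high, so this count supports nothing about the list. Fgf21, an endocrine growth factor of the fasting response, had no count in the control libraries and 124, 128 and 101 counts in the deprived ones, at least 38.7-fold higher when the control is set to 3 counts per library. Gdf15, the ligand of the hindbrain receptor GFRAL, likewise went from 0 counts to 16, 22 and 24, at least 6.78-fold higher on the same floor. Adm2, a peptide of the adrenomedullin family, rose from 0.656 to 74.6 CPM (6.83). The EGF receptor ligand Areg rose from 8.26, 8.56 and 7.54 to 203, 214 and 204 CPM (4.67, SE 0.057), Hbegf by 1.65 and the angiogenic factor Vegfa by 2.70. The median of the list was 4.67, and 2.76 with Fgf21 and Gdf15 set to their bounds.

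The genes that supply and spend cysteine did not move as 1 group. Slc7a11, the transport subunit of xCT, rose from 10.4, 9.75 and 10.4 CPM in the control cultures to 164, 167 and 149 CPM in the deprived ones (3.97, SE 0.053, adjusted p = 5.26e-32). Its partner Slc3a2, which also pairs with other amino acid transporters, rose from 189 to 637 CPM (1.75). In transsulfuration, a change could be judged for the second enzyme only. Cth was at 24.1, 24.6 and 23.4 CPM in control medium and at 232, 243 and 247 CPM in deprived medium (3.32, SE 0.048), whereas Cbs had only 1, 3 and 5 counts in the control libraries and 1, 0 and 4 in the deprived ones, too few to show a change (adjusted p = 0.491). The lysosomal cystine exporter Ctns rose by 0.71. Of the enzymes that break cysteine or sulfide down, Tst fell by 1.13 and Ado by 0.66 on the log2 scale, and 4 of the 10 genes in this list rose and 4 fell. With total counts only, 3 rose.

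Chac1, which cleaves glutathione inside the cell, stood apart from the other glutathione genes. It rose from 1.56, 1.24 and 1.23 to 110.4, 117 and 114 CPM (6.41, SE 0.086, adjusted p = 7.08e-32). Its paralogue Chac2 rose by 0.64, and no other member of the 16 genes tested for glutathione synthesis, recycling and degradation rose. A further 9 of them fell. Gsr, which reduces oxidised glutathione with NADPH, went from 164, 173 and 165 to 93.9, 102 and 87.5 CPM (-0.82, SE 0.041), and the glutaredoxin gene Glrx5 fell by 0.68. The subunits of glutamate-cysteine ligase, the rate-limiting enzyme of glutathione synthesis, shifted little. Gclc was at 83.1, 84.9 and 86.2 and 74.2, 74.0 and 73.8 CPM (-0.20, adjusted p = 3.36e-05) and Gclm at 117, 110.2 and 111 and 101, 104 and 103 CPM (-0.13, adjusted p = 0.00213). Gss, for the second step, was at 33.6 and 35.9 CPM, a log2 difference of 0.095 that did not pass the test (adjusted p = 0.0952). Of the glutathione peroxidases, Gpx4, which reduces lipid hydroperoxides, was at 228, 224 and 210.4 and 240.4, 242 and 250.1 CPM (0.14, adjusted p = 1.49e-04), a call that was lost with upper-quartile scaling and with total counts only. Gpx3 was near the floor, with 10, 9 and 17 counts in control and 1, 6 and 3 in deprived libraries (-1.83, adjusted p = 0.00701), and its value ranged from -2.54 to -1.42 over the alternatives, with adjusted p up to 0.0459.

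Methionine cycle genes tended downward, with 7 of 11 lower and 4 higher, or 3 higher with total counts only. Past 2-fold, 1 rose and 2 fell. Among the 11, Nnmt had 1 count over the control libraries and 27 over the deprived ones. The low-count filter cannot have kept it through the control libraries. Mat2a, which makes S-adenosylmethionine, fell from 458, 471 and 465 to 246, 234 and 220.0 CPM (-0.99, SE 0.037), and the DNA methyltransferase Dnmt3a fell by 1.09 on the log2 scale. Mtr, which remethylates homocysteine, rose by 0.44 and Mtrr by 0.37. In the adjoining polyamine pathway, Mtap, which salvages methionine, fell from 448, 444 and 438 to 149, 153 and 149 CPM (-1.56, SE 0.028), while Sat1, which acetylates polyamines for breakdown, rose from 121 to 532 CPM (2.14). Cdkn2a and Cdkn2b, which lie near Mtap, had no count in any of the 6 libraries.

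Amino acid transporters and the enzymes of amino acid synthesis split by gene. Of 22 transporters tested, 12 rose, 10 more than 2-fold, and 8 fell, 2 of them more than 2-fold. The glycine transporter Slc6a9 rose by 3.18, the neutral transporter Slc1a4 by 2.44, the arginine transporter Slc7a1 by 1.86 and Slc7a5 (LAT1) by 1.81. Slc7a3 and Slc1a1, an arginine and a glutamate transporter, each had 1 count over the control libraries and 41, 34 and 34 and 16, 11 and 12 counts in the deprived ones. Both are among the 10, yet the low-count filter cannot have kept them through these control libraries. Their part in the counts of this list therefore supports nothing. Lower were, among others, the leucine transporter Slc43a2 (-1.42) and the taurine transporter Slc6a6 (-0.97). Asns, asparagine synthetase, rose from 174, 163 and 172 to 1023, 1016 and 1033 CPM (2.60, SE 0.029). Gpt2, the mitochondrial alanine transaminase, rose by 4.17, and in proline synthesis Aldh18a1 and Pycr1 rose by 2.62 and 2.93. The proline-degrading Prodh fell by 0.94 and the glutaminase Gls2 by 1.56 on the log2 scale. The list of 20 such enzymes held 7 that rose, 6 of them more than 2-fold, and 12 that fell.

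Serine and folate enzymes moved in both directions. Aldh1l2, which oxidises formyl-tetrahydrofolate to make NADPH in mitochondria, rose from 20.3, 21.7 and 20.7 to 519.7, 499 and 508 CPM (4.60, SE 0.040). The mitochondrial enzymes Mthfd2 and Shmt2 rose by 2.57 and 1.52, and Mthfd1l by 0.97. Their cytosolic counterparts fell, Shmt1 by 1.23 and Mthfd1 by 0.43 on the log2 scale. In serine synthesis, Psph rose by 3.15, against 0.70 for Psat1 and 0.64 for Phgdh. The folate carrier Slc19a1 fell by 0.81, and of 20 genes 8 rose and 9 fell.

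The aminoacyl-tRNA synthetases, which load amino acids onto their transfer RNAs, differed between the compartments in their medians, with overlapping ranges. Of 20 cytosolic synthetases 16 rose, 13 more than 2-fold, with a median of 1.52. Of 17 mitochondrial ones 4 rose, none more than 2-fold, and 9 fell, with a median of -0.27. Cars, the enzyme for cysteine itself, had the largest rise among them, from 96.0, 92.2 and 94.1 to 518, 529 and 544 CPM (2.49, SE 0.026), while its mitochondrial counterpart Cars2 fell from 25.6 to 14.9 CPM (-0.79). Aars followed at 2.42, Tars at 2.23 and Sars at 2.12. Qars, for glutamine, was the cytosolic member that fell most (-1.06), and Kars, which also serves mitochondria, fell by 0.28. Exosc6 (ENSMUSG00000109941, plus strand of chromosome 8, 111056339 to 111057664) lies inside the end of Aars on the same strand. It had 566, 721 and 566 counts in the control libraries and 0 in each deprived library. Reads in that stretch could belong to either gene, so the assignment of counts between Aars and Exosc6 is uncertain; Exosc6 was looked at after its values were seen.

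**Figure D3:**
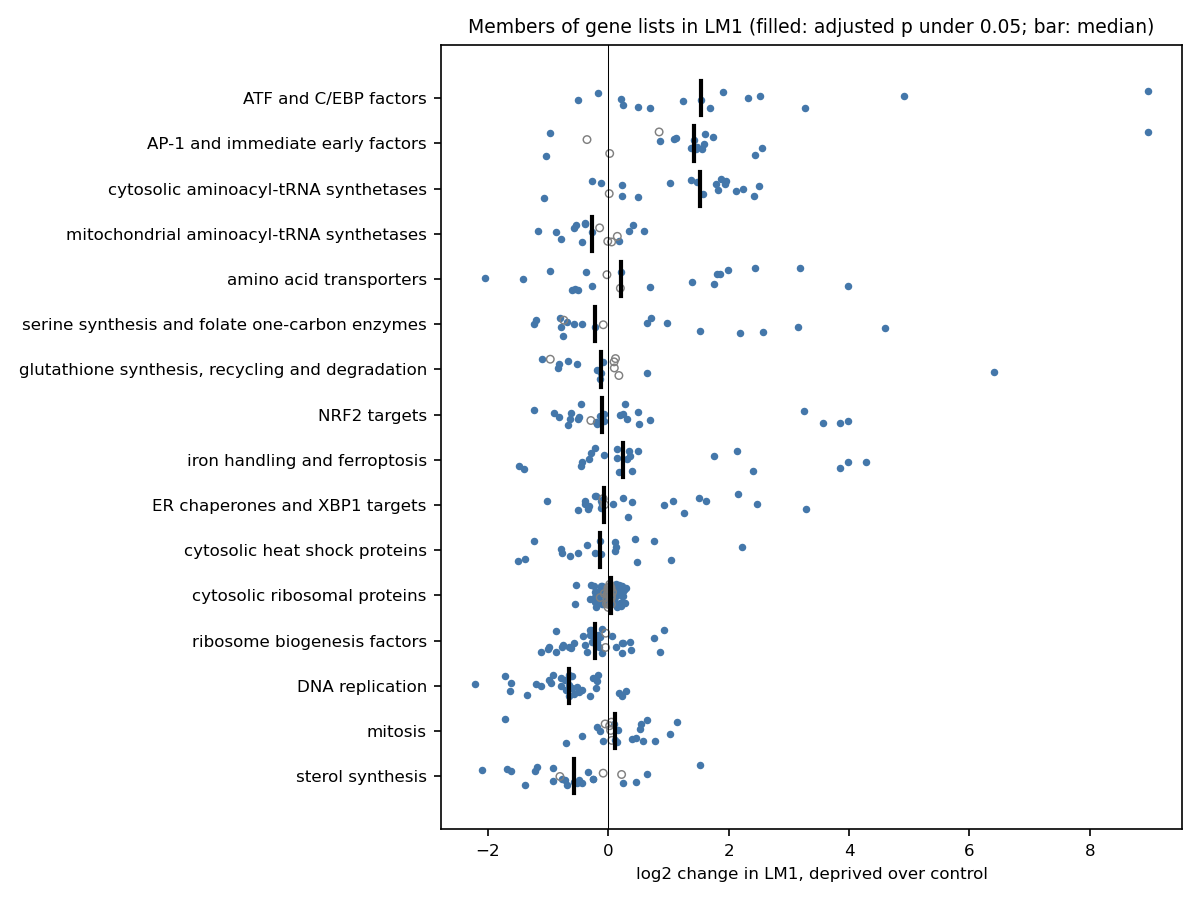
Log2 change in LM1 (x axis, deprived over control) of the members of 16 gene lists, 1 point per gene, filled where the adjusted p is under 0.05, with a bar at the median of the genes drawn. Genes with 3 counts or fewer in every library of a group are left out; the median of the cytosolic synthetases lies above that of the mitochondrial ones, while their ranges overlap.

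Of the translation genes, none of the 79 cytosolic ribosomal proteins changed more than 2-fold; 33 rose and 23 fell, and this balance depends on the scaling, since 13 rose and 45 fell with total counts only. Initiation factors gave 16 higher, 5 of them more than 2-fold, and 19 lower of 42, among them Eif1 (1.35), which sets the stringency of start codon choice, Eif3c (1.34) and the scaffold Eif4g1 (-0.77). With total counts only, 13 initiation factors rose and 25 fell. Ribosome biogenesis factors were lower in 28 of 40 and higher in 10, with a median of -0.23. Nolc1 fell by 1.12 and the RNA polymerase I subunit gene Polr1b by 1.00 on the log2 scale. Eef1a1, the most abundant mRNA in LM1 in control medium, rose from 10346, 10263 and 10304 to 13441, 13762 and 13725 CPM (0.40).

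NRF2 targets were mixed. Of 27 tested, 11 rose and 15 fell, with a median of -0.10. Those more than 2-fold higher were Slc7a11, Hmox1, Sqstm1 and Osgin1, and the glutathione transferase gene Gsta4, at 0.995 and 0.415 CPM, was more than 2-fold lower. Hmox1, heme oxygenase 1, rose from 32.9, 31.6 and 32.4 to 455, 456 and 481 CPM (3.85, SE 0.036, adjusted p = 1.77e-35). Sqstm1, which encodes the autophagy receptor p62 that also sequesters KEAP1, rose from 350.0, 346 and 347 to 4011, 4085 and 4262 CPM (3.57, SE 0.028). By contrast the quinone reductase Nqo1 fell from 5.81 to 4.16 CPM (-0.48), and Txnrd1 and Srxn1 rose by less than 2-fold, at 0.28 and 0.70. Nfe2l2, which encodes NRF2, rose by 0.87, its competitor Bach1 by 1.23 and the small MAF gene Maff by 1.42, while Keap1 fell by 0.25. In the peroxiredoxin and thioredoxin list 4 of 13 rose and 9 fell, with Txnip, the inhibitor of thioredoxin, at 1.36. Suppliers of NADPH were lower in 12 of 15, among them the cytosolic isocitrate dehydrogenase Idh1 (-1.60) and the pentose phosphate enzyme G6pdx (-0.62).

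Among genes for iron and ferroptosis, 14 of 22 rose, 6 more than 2-fold, and 8 fell. Ptgs2, which encodes cyclooxygenase 2 and is often used as a transcript marker of ferroptosis, rose from 19.8, 18.5 and 19.4 to 368, 382 and 375 CPM (4.29, SE 0.051, adjusted p = 4.80e-33). Gch1, for tetrahydrobiopterin synthesis, rose by 2.41 from 0.705 CPM, Acsl4, which activates polyunsaturated fatty acids, by 0.36, and Aifm2 (FSP1), which reduces ubiquinone, by 0.34. Dhodh, the mitochondrial pyrimidine enzyme that also reduces ubiquinone, fell by 1.41 and the ferrireductase Steap3 by 1.49 on the log2 scale. The transferrin receptor Tfrc was at 475, 458 and 465 CPM and 452, 449 and 426 CPM (-0.075), a call that was lost without deprived culture 3 (adjusted p = 0.0940). In heme metabolism, Cpox rose by 2.35 and the mitochondrial transporter Abcb10 fell by 1.53, with 5 of 19 genes higher and 10 lower.

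Genes of the endoplasmic reticulum gave 12 higher and 12 lower of 26, of which 7 were more than 2-fold higher and 1 more than 2-fold lower. Herpud1, part of the degradation machinery of the endoplasmic reticulum, rose by 3.28, the chaperone Hspa5 from 896 to 2759 CPM (1.62), the oxidase Ero1a by 2.16, Ern1 (IRE1) by 2.48 and Xbp1 by 1.50. The chaperones and isomerases Sdf2l1, Calr, Pdia4 and Pdia6 fell, by 1.01, 0.51, 0.39 and 0.38 on the log2 scale. Of 19 cytosolic heat shock genes 8 rose, 2 more than 2-fold, and 11 fell, 3 more than 2-fold, with a median of -0.13; with total counts only 5 rose and 11 fell. Hspa8, the constitutive HSC70 and one of the 10 most abundant mRNAs in LM1, fell from 2891, 3055 and 3109.8 to 1141, 1189 and 1152 CPM (-1.38, SE 0.028), and the inducible Hspa1a by 1.49. The cochaperone Dnajb4 rose by 2.22.

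Immediate early genes rose at 6 h: 14 of 19 were higher, 13 of them more than 2-fold, with a median of 1.42. Jun rose from 52.4, 52.1 and 50.5 to 270.1, 284 and 285 CPM (2.44, SE 0.043), Fosl2 by 1.60, Jund by 1.48 and Junb by 1.13, while Fos, with 3, 10 and 4 counts in control and 6, 11 and 14 in deprived libraries, did not pass the test (adjusted p = 0.109) unless control culture 2 (adjusted p = 0.0228) or deprived culture 1 (adjusted p = 0.0488) was left out. Srf and Egr3 were the members that fell (-0.97 and -1.04). In the KLF family of zinc finger factors 9 of 13 rose, with Klf6 from 85.8, 89.5 and 92.2 to 772, 835 and 811 CPM (3.18), Klf4 at 2.91 and Klf5 at 2.34. Klf16 fell by 1.43. The phosphatases that switch off MAP kinases rose in their majority, 12 of 18 with the Sprouty inhibitors included. Dusp8, which acts on JNK and p38, rose by 4.06, Dusp10 by 2.58, Dusp16 by 2.46 and Dusp1 by 2.21, while Spry1 fell from 2.21 to 0.399 CPM. In a list of histone and DNA demethylases with the methyltransferases Setd2 and Ezh2, 11 of 12 rose, led by the demethylases Kdm6b (1.79), Kdm4a (1.71) and Tet2 (1.53); Ezh2 fell by 0.19 on the log2 scale.

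Most genes of DNA replication fell, while the list for mitosis was mixed. Of 33 replication genes 30 fell, 7 more than 2-fold, with a median of -0.65. Ccne1, cyclin E1, which drives entry into S phase, fell from 72.3, 74.9 and 73.8 to 15.4, 16.8 and 15.3 CPM (-2.22, SE 0.048, adjusted p = 1.71e-26). Ccne2 fell by 1.72, the licensing genes Cdc6 and Orc1 by 1.64 and 1.62, and E2f1, which activates many of these genes, by 1.36 on the log2 scale. In the mitosis list 13 of 24 rose and 6 fell, with a median of 0.11 that turned to -0.0098 with total counts only, where 9 rose and 10 fell. The kinase gene Aurka rose from 101 to 223 CPM (1.14), Top2a by 0.77 and cyclin B1 (Ccnb1) by 0.57, while Mybl2 fell by 1.72. Among brakes on the cycle, Cdkn1a (p21) rose from 101, 103 and 98.0 to 306, 319 and 319 CPM (1.64). Ccnd3 and Ccnd1, cyclins of G1, fell by 1.25 and 0.57. In bulk RNA, fewer cells in S phase and less of these mRNAs per cell cannot be told apart.

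Myc, the oncogene that the MMTV transgene supplies in this model, was counted at 1133, 1131 and 1146 CPM in control medium and 648, 638 and 568 CPM in deprived medium (-0.88, SE 0.034, adjusted p = 3.77e-20). Whether transgene reads are included in that count is not given in the sources used here. Its partner Max fell by 0.29 and the antagonist Mxd3 fell by 1.91, while the antagonist Mxd1 rose by 1.46, and 7 of 10 network members fell. Of 24 p53 genes 11 rose and 13 fell. The 7 over 2-fold, which include Plk3 (4.20), Plk2 (1.98) and the death gene Bbc3 (1.70), contrast with Mdm2 at 0.54, Ccng1 at -0.70 and Zmat3 at -0.23. In the list of the BCL2 family and death receptors 6 of 18 genes rose and 11 fell, 3 more than 2-fold in each direction. Those 3 that rose were Casp4, an inflammatory caspase (1.97, from 0.398 CPM), the pro-death Bbc3 and the caspase-8 regulator Cflar (1.12). The pro-death genes Bok and Bcl2l11 fell by 2.11 and 0.64 on the log2 scale, and the survival gene Mcl1 rose by 0.49.

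Most genes of sterol synthesis fell. In this pathway 18 of 25 were lower, 6 of them more than 2-fold, with a median of -0.57; the exceptions that rose were Msmo1 (1.53), Sqle (0.64), Fdft1 (0.45) and Tm7sf2 (0.25), which overlaps another gene and lost its call with total counts only (adjusted p = 0.107). Insig1, a sensor that restrains SREBP, fell from 28.0, 28.9 and 27.6 to 8.81, 9.66 and 9.02 CPM (-1.62, SE 0.10). Fasn, fatty acid synthase, fell from 1014, 1079 and 1061 to 349, 354 and 339 CPM (-1.60, SE 0.037), the elongase Elovl6 by 2.11 and the desaturase Scd2 by 1.47 on the log2 scale. Of the lipoprotein receptors, Lrp8 fell by 2.58 on the log2 scale, whereas Vldlr went from 2, 0 and 2 counts in the control libraries to 112, 100 and 84 in the deprived ones. That is at least 32.4-fold higher when the control is set to 3 counts per library. The low-count filter cannot have kept Vldlr through these control libraries, so its rise is given only as a description.

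In the autophagy list 17 of 30 rose and 8 fell. After Sqstm1 came the receptor Optn (1.87) and the master factors Mitf (1.53) and Tfe3 (1.12), whereas Tfeb fell by 1.25 on the log2 scale. The 28 genes of the lysosome list that were tested held none past 2-fold, 13 higher and 8 lower, and their median of 0.072 turned to -0.047 with total counts only. The metallothioneins, small cysteine-rich proteins that bind zinc, rose: Mt1 from 165, 164 and 167 to 566, 550.2 and 557 CPM (1.76) and Mt2 from 426, 431 and 432 to 1299, 1267 and 1314 CPM (1.59). The zinc exporter Slc30a1 rose by 1.44, and the zinc importer Slc39a10 fell from 76.7, 75.7 and 70.0 to 11.1, 10.9 and 11.5 CPM (-2.73, SE 0.057). Glycolysis genes were lower in 13 of 21, with the lactate carrier Slc16a3 at -1.73 and Pgam1 at -0.97. Of 13 mitochondrially encoded genes 1 passed the test, ND1 at -0.27, and 5 fell with total counts only. Of 38 proteasome genes 12 rose and 18 fell, none more than 2-fold, and with total counts only 7 rose and 24 fell.

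Several lists that had no link to amino acids were examined too. Of 15 genes of the hypoxia list 8 rose and 6 fell; Ndrg1 rose by 4.11 and Hif1a by 1.29, while the HIF targets Pdk1 and Egln3 fell by 1.05 and 1.52 on the log2 scale. Of 18 interferon-stimulated genes 8 rose and 4 fell, 7 with total counts only, and their summed level was 141.8 to 144.4 CPM in control and 128.4 to 137.4 CPM in deprived cultures. The 7 that rose more than 2-fold were at low levels: Rsad2 went from 0.182 to 2.33 CPM, Isg15 from 0.370 to 2.50 CPM, and the chemokine gene Cxcl10 from 0 counts to 12, 20 and 20, at least 5.69-fold higher on the floor of 3 counts per library. Cxcl10 and Oasl2, with 0 and 7 counts over the control libraries, cannot have been kept by the low-count filter through those libraries. A count of rising genes that includes them supports nothing about this list. Of 12 MHC class I genes 7 fell and 2 rose, and the peptide transporter gene Tap1 fell by 1.00 and Tap2 fell by 0.97 on the log2 scale. Of 9 Wnt genes tested 2 rose and 4 fell, 1 and 5 with total counts only, most of them near the floor.

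Among the 15 largest increases at a mean log2 CPM of 3 or more, several belong to none of the lists above. The mitochondrial thioesterase Acot2 rose from 1.36, 1.46 and 1.23 to 59.0, 58.3 and 58.6 CPM (5.43), the corneodesmosome gene Cdsn by 5.14, the deubiquitinase Otub2 by 4.71, the RNA-binding protein gene Arid5a by 4.65 and the glycerol-phosphate acyltransferase Gpat3 by 4.19. All of these were under 15 CPM in control medium. Of the 15 largest decreases at that level, a pair stood well below the rest. Ccnb1ip1 (ENSMUSG00000071470, minus strand of chromosome 14, 50789248 to 50807732), a ubiquitin ligase gene known from meiotic recombination, fell from 45.5, 44.3 and 46.1 to 1.72, 2.43 and 2.16 CPM (-4.43, SE 0.11, adjusted p = 1.08e-24); it is overlapped on its own strand by Rpph1. Ung (ENSMUSG00000029591, plus strand of chromosome 5, 114130386 to 114139323), the uracil-DNA glycosylase of base excision repair, fell from 34.5, 37.7 and 37.6 to 1.62, 2.70 and 2.30 CPM (-4.05, SE 0.10, adjusted p = 8.15e-25). After these, and after Slc39a10, came a tight group between -2.71 (Pgm2l1) and -2.51 (Zc3hav1l). It holds the lysosomal thiol reductase Ifi30 (-2.68), the MYC-induced factor Tfap4 (-2.63), the kinase gene Camkk1 (-2.62), the nuclease-helicase Dna2 (-2.59), the RAB regulator Tbc1d4 (-2.55), and Slco4a1, Trib2, Ydjc, Lrp8 and Tmem252. The 10 most abundant mRNAs in control medium moved less. Eef1a1 rose, Pkm lay next to the threshold (-0.047, adjusted p = 0.0567) and passed it in most alternatives, among them DESeq2 (adjusted p = 0.00563), total counts only (adjusted p = 5.85e-08) and the fits without control culture 3 (adjusted p = 0.0161), without deprived culture 2 (adjusted p = 0.0443) or without deprived culture 3 (adjusted p = 0.0101). Actb and Actg1, which encode cytoplasmic actins, fell by 0.52 and 1.04; Hsp90ab1 fell by 0.35 and Ncl by 0.27. Vim and Eef2 rose by 0.11 and 0.13, calls that depend on the scaling.

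The share of cysteine that the mRNAs encode was compared as a description, without a test. Cysteine codons made up a median of 1.99% of the codons in genes that rose more than 2-fold, 2.14% in genes that fell more than 2-fold and 1.90% in all genes with a coding sequence in GENCODE M21 (11757 of 13400). The interquartile ranges were 1.32 to 3.03%, 1.45 to 3.00% and 1.22 to 2.73%, and they overlap over most of their width. Among genes not past the threshold only 2803 of 3876 had a coding sequence, too small a share for this comparison, and the median of those was 1.99%.

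The response of LM1 was set against that of the 3 other lines that were deprived in the same way, with 3 control and 3 deprived cultures each: MYAZ16_1e, from a tumour of the same mouse model, Myc310, the line LM1 was derived from, and LM1_LM, which was taken from the lungs of mice given LM1 cells. The test is the difference of the responses, and the LM1 libraries are shared by all 3 comparisons. The response differed between LM1 and LM1_LM in 103 genes (0.769%), between LM1 and Myc310 in 3278 (24.5%) and between LM1 and MYAZ16_1e in 6995 (52.2%). Of the 3278 genes, 2607 moved the same way in both lines and further in LM1, 279 the same way and less far, and 392 in opposite directions by the sign of the estimates. For MYAZ16_1e these numbers were 4575, 404 and 2016, and for LM1_LM 12, 82 and 9.

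**Figure D4:**
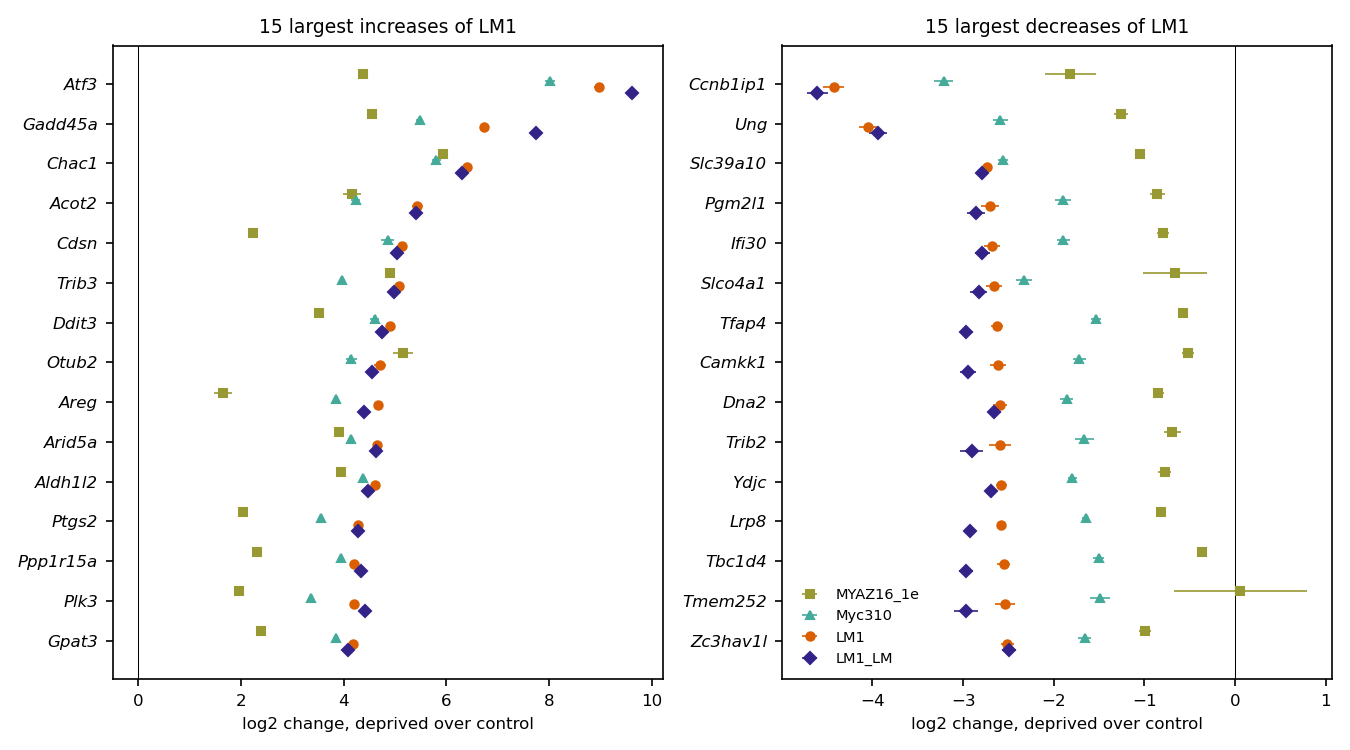
Log2 change (x axis, deprived over control) of the 15 largest increases and 15 largest decreases of LM1 in LM1 and in the 3 other deprived lines, 1 marker per line with a bar of 1 SE. The genes were chosen by their values in LM1, so LM1 tends to lie far out by construction; another line lies further out for some of them, as Otub2 does with 5.16 in MYAZ16_1e against 4.71 in LM1 and Gadd45a with 7.75 in LM1_LM against 6.74.

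The genes named here are the largest differences among those at a mean log2 CPM of 3 or more that changed in LM1 without overlap of its groups, so larger differences of other genes are not listed. Against Myc310, the 5 largest positive differences were in Dock11, Gadd45a, Crem, Hectd2 and Fn1. Gadd45a rose by 6.74 in LM1 and 5.48 in Myc310, a difference of 1.26 (SE 0.16, adjusted p = 8.64e-07). The fibronectin gene Fn1 rose from 5.54, 5.25 and 6.99 to 42.3, 46.6 and 46.2 CPM in LM1, with a difference of 1.21 between the responses. Dock11, an activator of CDC42, rose by 0.27 in LM1 and fell by 1.00 (SE 0.43) in Myc310; the test of this difference was not passed after thinning to equal depth (adjusted p = 0.0622), nor that of the LM1 change with total counts only (adjusted p = 0.0703). The 5 largest negative differences were in Ung (-1.46), Ccnb1ip1 (-1.21), Rflnb (-1.15), Tfap4 (-1.10) and Tmem252 (-1.05), which fell further in LM1.

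Against MYAZ16_1e the differences were larger. Atf3 rose by 8.97 in LM1 and by 4.37 in MYAZ16_1e, a difference of 4.60 (SE 0.25, adjusted p = 1.87e-15), and Areg differed by 3.01, Napb by 2.95, Cdsn by 2.91 and Ankrd1, a YAP target, by 2.65. In the other direction, the death receptor gene Eda2r rose by 0.78 in LM1 and 5.24 in MYAZ16_1e (difference -4.46, SE 1.01, adjusted p = 8.01e-04). Gypc, Afap1l1 and Kcnab2 fell in LM1, at -0.34, -1.01 and -1.30, and had changes of 3.53, 2.06 and 1.32 in MYAZ16_1e. The difference of Gypc only just passed the test of a difference, with adjusted p of 0.0259 to 0.0473 over the main fit and the alternatives. The level limit was a mean over the LM1 libraries, so it set no floor for these genes or Eda2r in MYAZ16_1e. Ung differed by -2.79.

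Against LM1_LM, 4 of the 103 genes differed by more than 2-fold, and the count rests on few libraries: it was 55 without control culture 3 of LM1, 48 without its deprived culture 1 and 56 without its deprived culture 2. Gadd45a rose further in LM1_LM, by 7.75 against 6.74 in LM1, a difference of -1.01 (SE 0.21, adjusted p = 0.0164). Its order over the lines was MYAZ16_1e, Myc310, LM1 and LM1_LM, with log2 changes of 4.55, 5.48, 6.74 and 7.75. Sulf2 differed by -0.81, Crybg3 by -0.76, Hectd2 by -0.48 and Serpinb9 by -0.44. The adhesion receptor gene Vcam1 rose further in LM1 (2.40) than in LM1_LM (1.72), and the cytokine gene Lif likewise (1.19 against 0.61). Smim1 and Apcdd1 fell less far in LM1, with differences of 0.67 and 0.57, and Tmem47 changed by 0.38 in LM1 and -0.12 in LM1_LM. Of these 10 genes, Crybg3, Apcdd1 and Tmem47 kept their call when any 1 LM1 library was left out, and the other 7 lost it in at least 1 such fit, Sulf2 in 5 of the 6 fits, Lif in 4 and Gadd45a without control culture 1 (adjusted p = 0.0808). Chac1, Cth and Slc7a11 did not pass the test of a difference between LM1 and LM1_LM, with differences of 0.10, -0.021 and 0.042 and adjusted p of 0.921, 0.964 and 0.916.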

How the data were processed

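The authors aligned reads with STAR and counted them with RSEM on GRCm38, and deposited whole-number counts per gene, 28454 genes in 1 table; the submitters' processing notes also name R 4.2.2 and DESeq2 1.38.3. Whether counting used strand is not given in the sources used here. Depth was 19521444 to 23370257 counts per LM1 library. Libraries of 1 group differed by more than counting noise (chi-square per degree of freedom of counts 2.26 to 3.1), so none was counted as a library deposited again; this does not show that they are independent cultures.

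The deposited counts were analysed in R 4.3.3 with edgeR 4.0.16 (filterByExpr, TMM, glmQLFit and glmQLFTest). The model had 8 group means over 24 libraries, the control and deprived cultures of 4 lines; other libraries were not used. Contrasts were deprived minus control in LM1 and its difference from the same contrast in each of the 3 other lines. P-values were adjusted by Benjamini-Hochberg over the 13400 genes tested, at 0.05, and the SE of a log2 change was its size divided by the square root of F. Alternatives were RLE, upper-quartile and total-count scaling, other filters on low counts, DESeq2 1.42.0, glmTreat, thinning, another prior count, the LM1 libraries alone, a replicate block and single omissions. Genes were named by these rules: the 15 largest changes in each direction at a mean log2 CPM of 3 or more without overlap of the groups; members of 55 gene lists, those with large changes or an explained role; the cysteine and glutathione genes the study names; the 5 largest differences per direction and line; and the 10 most abundant mRNAs. The members and lists were chosen with earlier results of these data known, and no list was tested as a set. Gene positions are those of GENCODE M21 (GRCm38), matched for 28407 genes. Cysteine codons were counted in GENCODE coding sequences, since no protein table was used. The script was tested on simulated counts. Some genes are not reported here.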

Additional observations from a re-analysis of the deposited data

Results flagged for a closer look

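The results below were picked out because the response of LM1 to deprivation differed from the response of another line by the edgeR interaction test; the LM1 libraries enter every one of these comparisons. The response differed in 3278 genes against Myc310, in 6995 against MYAZ16_1e and in 103 against LM1_LM. Groups of 3 cultures are too small for a test of single outlying cultures, so none was made.

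The values that follow are the LM1 response minus the response of the other line on the log2 scale, and the genes are the largest differences among those at a mean log2 CPM of 3 or more that changed in LM1 without overlap of its groups. Against Myc310 the largest positive differences were 1.27 for Dock11, 1.26 for Gadd45a, 1.24 for the cAMP-responsive factor Crem, 1.22 for the ubiquitin ligase Hectd2 and 1.21 for Fn1. The largest negative ones were -1.46 for Ung, -1.21 for Ccnb1ip1, -1.15 for Rflnb, -1.10 for Tfap4 and -1.05 for Tmem252.

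Against MYAZ16_1e, Atf3 differed by 4.60, Areg by 3.01, Napb by 2.95, Cdsn by 2.91 and Ankrd1 by 2.65. In the other direction stood Eda2r at -4.46, the erythrocyte membrane gene Gypc at -3.87, the actin filament gene Afap1l1 at -3.06, Ung at -2.79 and the potassium channel subunit Kcnab2 at -2.63. The level limit used the LM1 libraries only, and Gypc passed narrowly, with adjusted p of 0.0259 to 0.0473 over the main fit and the alternatives.

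Against LM1_LM, Smim1 differed by 0.67, Vcam1 by 0.67, Lif by 0.58, the Wnt inhibitor Apcdd1 by 0.57 and Tmem47 by 0.50. Negative differences were -1.01 for Gadd45a, -0.81 for the heparan sulfatase Sulf2, -0.76 for Crybg3, -0.48 for Hectd2 and -0.44 for the granzyme inhibitor Serpinb9. Of these, Ung, Gadd45a and Hectd2 appear in more than 1 comparison.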

How the results depend on the processing

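The number of genes that changed in LM1 was 9524 and ranged from 8570 to 9561 over 16 alternatives. Leaving out 1 LM1 library gave 9172 to 9242 genes, with 4591 to 4622 higher and 4572 to 4637 lower, 1199 to 1223 more than 2-fold higher and 1195 to 1249 more than 2-fold lower. With at least 10 counts required in every library, 804 genes were more than 2-fold higher and 784 lower, because fewer genes were tested. A test against a 2-fold change (glmTreat) called 829 higher and 674 lower genes. The same omissions gave 2796 to 3024 genes for the difference from Myc310, 6708 to 6773 for MYAZ16_1e and 48 to 98 for LM1_LM. The last count was 55 without control culture 3, 48 without deprived culture 1 and 56 without deprived culture 2, and 218 with no filter beyond 1 count; the cause was not tested. The narrower motif TGATGCAA was held by 0.791% of promoters, against 3.45% for TGATGNAA. With total counts only, the median of all genes moved by -0.12, and the log2 changes of Vim (-0.0048, adjusted p = 0.842) and Gss (-0.023, adjusted p = 0.703) turned negative. Same-numbered control and deprived cultures did not deviate together (r = 0.119, -0.176 and -0.0825 over 9019 genes), and not every culture correlated best with its own number. The replicate block gave 9494 genes in LM1 (4785 higher, 4709 lower) and 3256, 6975 and 93 for the differences from Myc310, MYAZ16_1e and LM1_LM, and 9300 with the LM1 libraries alone. Depth limits genes with few counts, such as Cbs in LM1, with 0 to 5 counts per library.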
